A study of Mus musculus with 8 samples.

Results

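CC chemokines are small secreted proteins with a pair of adjacent cysteines, and 9 of their genes, Ccl2, Ccl3, Ccl4, Ccl6, Ccl7, Ccl8, Ccl9, Ccl12 and Ccl24, are described here in single cells of the mouse colon. They were taken by name from the 20 Ccl genes among the 16889 genes of the deposited table of unique molecular identifiers (UMIs, each marking 1 captured RNA molecule). The lamina propria of the colon of 8 female mice was sorted for CD11b+ cells that carried CCR2 or CD64. The mice were of the CD98hcΔCX3CR1 strain, in which a tamoxifen-activated Cre under the Cx3cr1 promoter deletes the floxed CD98hc gene (Slc3a2) in cells that use this promoter. The control group was 4 mice given corn oil. The cKO group was 4 mice given tamoxifen, 100 µl at 20 mg/ml per mouse on 5 consecutive days, and cells were taken on day 7. All 8 mice carried the same Cre and floxed alleles, and only the cKO mice received the drug, so tamoxifen and the deletion cannot be told apart. Libraries were made from the 3' ends of transcripts.

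The members act as signals for leukocytes and are read by receptors on the target cell. Ccl2, Ccl7 and Ccl12 are monocyte chemoattractant proteins that act through Ccr2, the receptor by which blood monocytes leave the bone marrow and refill the pool of gut macrophages. Ccl8 belongs to the same family and acts in mice through Ccr8. Ccl3 and Ccl4 are macrophage inflammatory proteins, and Ccl3 acts in part through Ccr1. Ccl6 and Ccl9 are ligands of Ccr1, and Ccl24 is an eotaxin that acts through Ccr3 on eosinophils.

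After filtering, 3213 cells were kept, 1863 from control and 1350 from cKO mice, with totals of 589135 to 3762314 UMIs per control mouse and 497531 to 2486236 per cKO mouse. Control replicate 3 and cKO replicate 5 stood apart with 85 and 83 cells, against 349 to 724 in the other mice, and 24 cells of cKO replicate 5 were called doublets. Among the kept cells, 8 cell barcodes occurred in more than 1 library. Slc3a2 was at 358, 264, 233 and 493 CPM (UMIs of the gene per 1e6 UMIs of the library) in the control mice. The cKO mice had 291, 357, 323 and 309 CPM of it. Its log2 fold change was 0.02 (adjusted p = 0.976 by edgeR). Where its tags lie relative to the deleted part of the gene was not tested. These levels therefore do not decide whether the gene was deleted. The summed level of 9 monocyte markers was 1643 to 3358 CPM in control and 7091 to 10464 CPM in cKO mice. The sum of 12 macrophage markers was 11119 to 22321 and 9375 to 15418 CPM, respectively. Markers of type 1 and of type 2 dendritic cells (6 each) summed to 647 to 1106 and 696 to 974 CPM in control and to 345 to 436 and 253 to 396 CPM in cKO mice, and 6 neutrophil markers to 21.1 to 44.8 and 49.6 to 88.4 CPM. Markers of eosinophils (3 of 4 in the table) summed to at most 5.05 CPM in control and 18.1 CPM in cKO mice.

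The cells were grouped into 9 clusters without the Ccl, Ccr and Ackr genes. Cluster 2 (566 cells, led by Fcrls, C1qc, C1qa and Pf4) was macrophage-like, cluster 3 (536 cells, Cd209a, Xcr1, Flt3) dendritic cell-like, cluster 4 (490 cells, Chil3, Ly6c2) monocyte-like, cluster 8 (179 cells, Jchain, Cd79a, Cd3g) lymphoid-like and cluster 9 (86 cells, Dcn, Col3a1) stromal-like. Cluster 5 (246 cells, led by Folr2, Pf4, Cela1 and Igf1) was macrophage-like with few UMIs, its cells having a median of 0.236 of their own mouse's UMI count. Cluster 6 (220 cells, Cebpb, Ear2, Klf2) had few UMIs too, at 0.338 of it. Clusters 1 (676 cells, Vegfa, Gdf15, Il1r2), 6 and 7 (214 cells, Il1a, Acod1, Arg1) held too few fixed markers to be named, and 196 cells of cluster 7 came from cKO mice. Levels are given per mouse where a mouse had at least 20 cells in a cluster, and differences between clusters are descriptions.

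Most members followed 1 of 3 patterns over the clusters of the control colon. Ccl7, Ccl8 and Ccl12 were highest in the macrophage-like clusters, Ccl6 and Ccl9 in the monocyte-like cells, and Ccl2, Ccl3 and Ccl4 were spread over the myeloid clusters. Ccl24 was high in cluster 1 of some mice only. No member had its highest mean in dendritic cell-like, lymphoid-like or stromal-like cells. The highest mean there was that of Ccl4 in dendritic cell-like cells, at 426 ± 129 CPM (SD, n = 4). Means of Ccl8 in stromal-like (112 CPM, 1 mouse) and lymphoid-like cells (85.3 CPM) were above those in clusters 1 (70.9 CPM), 6 (26.5 CPM) and 4 (17.9 CPM).

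**Figure D1:**
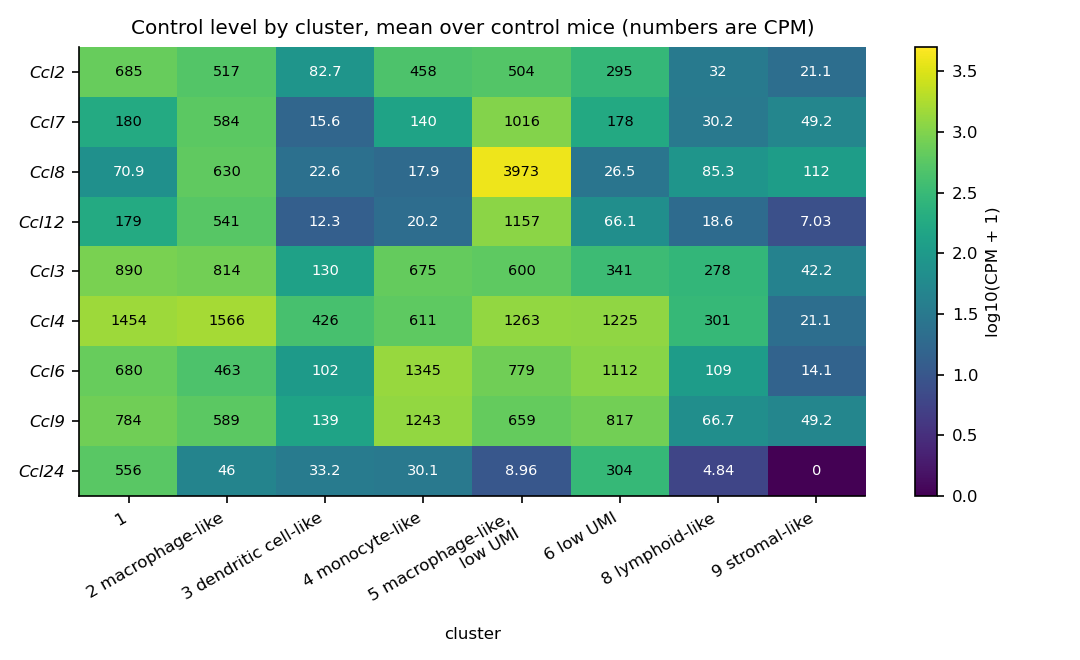
Level of the 9 CC chemokines (rows) in 8 clusters of control cells (columns), as the mean CPM over control mice with at least 20 cells in the cluster (colour, log10 of CPM + 1; stromal-like cells from 1 mouse). Ccl8 reached 3973 and 630 CPM in the macrophage-like clusters 5 and 2, while Ccl6 and Ccl9 peaked in cluster 4.

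Ccl8 had the largest step in level from its leading cluster to the next. In cluster 5 it stood at 3523, 3804 and 4592 CPM in control replicates 1, 2 and 4, and in cluster 2 at 729, 918 and 244 CPM. The ranges of these clusters did not overlap, and cluster 5 was 6.30-fold above cluster 2. Every other cluster lay at or below 185 CPM in each control mouse. Thinning each cell to 1000 UMIs left out shallower cells, so that 78 of 127 control cells of cluster 5 and 449 of 455 of cluster 2 remained. Of these, 60.3% and 20.5% held a Ccl8 UMI, against 3.99% of dendritic cell-like and 3.45% of lymphoid-like cells. The part of free RNA in these shares was not tested. Without thinning the shares were 65.4% (95% Wilson interval 56.7 to 73.1%), 38.5% (34.1 to 43.0%), 21.6% and 20.5%, at median depths of 1101, 5458, 9365 and 3669 UMIs. These intervals cover counting error only. Stromal-like cells held a Ccl8 UMI in 16.9% of thinned cells. Without thinning the share was 39.7% (28.9 to 51.6%) of 68 cells, no lower than that of cluster 2.

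Ccl7 and Ccl12 followed the same order with smaller steps. Ccl7 was at 1372, 618 and 1058 CPM in cluster 5 of control replicates 1, 2 and 4 and at 628, 740 and 385 CPM in cluster 2, and these ranges overlapped. In cluster 5, Ccl12 was at 1479, 543 and 1447 CPM, and in cluster 2 at 645, 725 and 253 CPM, which overlapped too. Ccl12 was at or below 27.4 CPM in every control mouse in monocyte-like, dendritic cell-like and lymphoid-like cells. Ccl7 reached 325 CPM in the monocyte-like cells of control replicate 4 but was at 79.8 and 16.2 CPM in those of replicates 1 and 2.

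Ccl2, read like Ccl7 and Ccl12 by Ccr2, was less confined. Its mean control level was 685 ± 327 CPM (SD, n = 4) for cluster 1, 517 for the macrophage-like cluster 2, 504 for cluster 5 and 458 CPM for monocyte-like cells, and the ranges of neighbours in this order overlapped. It fell to 82.7 CPM in dendritic cell-like and 32.0 CPM in lymphoid-like cells.

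Ccl2, Ccl7, Ccl12 and Ccl8 lie in 1 stretch of chromosome 11, with Ccl11 between Ccl7 and Ccl12, at chr11:82035571-82037453, chr11:82045712-82047525, chr11:82101845-82103400 and chr11:82115185-82116799, all on the plus strand (GENCODE vM21, GRCm38, the assembly named mm10). Ccl9 (chr11:83572919-83578636) and Ccl6 (chr11:83587882-83593087) lie further along on the minus strand, followed by Ccl3 (chr11:83647844-83649355, minus) and Ccl4 (chr11:83662584-83664683, plus). Ccl24 is on chromosome 5 (chr5:135569937-135573049, minus). No pair of members shared a run of 58 bases, the read length, in their annotated transcripts, and the longest shared run was 25 bases, between Ccl6 and Ccl9. The 100 bases before the start site of 2 pairs are shown, since Ccl12 and Ccl8 shared their leading cluster and so did Ccl6 and Ccl9 (RefSeq, GRCm38.p6, gene strand, 5′ to 3′). Capitals mark matches on either strand to TATAAA, the letters of a TATA box.
Ccl12, chr11:82101745-82101844: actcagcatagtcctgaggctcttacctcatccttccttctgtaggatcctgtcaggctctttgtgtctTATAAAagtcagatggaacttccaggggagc
Ccl8, chr11:82115085-82115184: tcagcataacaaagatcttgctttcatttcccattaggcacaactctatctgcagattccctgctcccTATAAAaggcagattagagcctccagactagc
Ccl9, chr11:83578637-83578736: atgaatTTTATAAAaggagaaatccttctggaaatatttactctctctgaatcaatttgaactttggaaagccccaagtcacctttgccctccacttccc
Ccl6, chr11:83593088-83593187: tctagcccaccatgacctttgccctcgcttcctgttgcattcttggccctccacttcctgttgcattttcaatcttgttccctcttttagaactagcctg

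The TATAAA letters began 31 bases before the start of Ccl12, 32 before Ccl8 and 92 before Ccl9 (a match that overlaps another on the opposite strand), and were not in the window of Ccl6. Of the 5 members with a RefSeq window (those 4 and Ccl3, 250 bases before to 50 after the start), 3 held TATAAA, as did 13.6% of all 32851 windows. The longest run shared by the 250 bases before the start was 13 bases for Ccl6 and Ccl9 and 8 bases for Ccl12 and Ccl8, and 7 to 9 bases for the other pairs of these 5 members. These are matches of letters and say nothing of binding.

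Ccl6 and Ccl9 had their highest mean control levels in monocyte-like cells, but with cells thinned to 1000 UMIs cluster 6 led for Ccl6. In cluster 4, Ccl6 stood at 1150, 1332 and 1554 CPM and Ccl9 at 1192, 1018 and 1519 CPM in control replicates 1, 2 and 4. Cluster 6 came next, with 1112 CPM for Ccl6 and 817 CPM for Ccl9, and its range overlapped that of cluster 4 for Ccl6 but not for Ccl9. For Ccl9, cluster 1 (297 to 1100 CPM) overlapped cluster 4 as well, and in control replicate 2 it was the higher of the pair. In cluster 2 the means of Ccl6 and Ccl9 were 463 and 589 CPM, and in dendritic cell-like cells 102 and 139 CPM. Of the control monocyte-like cells, 95.6% held a Ccl6 UMI and 91.1% a Ccl9 UMI, and after thinning 62.4% and 61.8%, against 5.75% and 2.30% of lymphoid-like cells. Over the 24 sums of control mouse and cluster, Ccl9 was the gene nearest to Ccl6 and Ccl6 the gene nearest to Ccl9 among 4827 genes (Pearson's r = 0.947 of log2(CPM + 1)). The sums share mice and depth, so r is a description.

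Ccl3 and Ccl4 were made across the myeloid clusters. Ccl3 was at 890 ± 155 CPM (SD, n = 4) in cluster 1, at 814 in the macrophage-like cluster 2, at 675 in monocyte-like cells and at 600 CPM in cluster 5. The ranges of clusters 1 and 2 overlapped. Cluster 2 lay above the monocyte-like cells in the 3 control mice with at least 20 cells in both. Ccl4 was at 1566, 1454, 1263 and 1225 CPM in clusters 2, 1, 5 and 6, with overlapping ranges, and all lay above the 611 CPM of monocyte-like cells. In lymphoid-like cells control replicate 4 had 733 CPM of Ccl3 and 719 CPM of Ccl4, where replicates 1 and 2 had 52.6 and 47.3 CPM of Ccl3 and 96.4 and 86.7 CPM of Ccl4, so these genes stood apart there in 1 mouse.

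Ccl24 varied most between mice. In all control cells it was at 6.64, 4.89, 260 and 419 CPM in replicates 1 to 4, and in cKO replicates 5 to 8 at 0, 78.0, 141 and 38.1 CPM. Its molecules lay in few cells, as 79.2% of its 2005 UMIs were in the 1% of cells with most of them, against 12.6% to 38.8% for the other members. In cluster 1 the control mice stood at 23.2, 8.62, 879 and 1315 CPM, so controls 3 and 4 were high and controls 1 and 2 were low. Ccl24 UMIs occurred in 42 cells of cluster 1 in control replicate 4 and in 6 in control replicate 1. In cKO replicate 7 the cells with a Ccl24 UMI lay mainly in clusters 4 (24 cells) and 7 (20 cells). Over all cKO cells, cluster 7 held 54.9% of the Ccl24 UMIs and cluster 1 held 21.9%, against 0.139% and 78.8% in control cells. Without cKO replicate 7 the cKO shares were 32.4% and 46.3%.

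Beyond the pair of Ccl6 and Ccl9, the genes whose levels ran most alike over the same 24 control sums differed by pattern. For Ccl8 they were Fcrls (r = 0.859), Igf1 (0.851) and Cd72 (0.849), for Ccl12 Ms4a7 (0.913), C1qc (0.867) and Pf4 (0.865), and for Ccl7 Apoe (0.837), Selenop (0.834) and Aoah (0.822). For Ccl2 they were Lyz1 (0.878), Lst1 and Clec4a1 (both 0.868), for Ccl3 Fcgr3 (0.857), Msr1 (0.845) and Ccl4 (0.840), and for Ccl4 Ms4a6d (0.906), Ctss (0.899) and Clec4a2 (0.890). The closest genes to Ccl24 were Ptgs2 (0.750), Rilpl2 (0.717) and Cdkn1a (0.706). Next after their own pair came Tpd52 (0.923) and Cyp4f18 (0.921) for Ccl6, and Gngt2 (0.927) and Fcgr3 (0.926) for Ccl9. Between members, r ranged from -0.48 for Ccl8 with Ccl24 to that of Ccl6 with Ccl9, and Ccl7 and Ccl12 had 0.81.

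In cKO mice the molecules of most members came from other clusters than in control mice. The share of Ccl6 UMIs in monocyte-like cells was 21.7% in control and 49.5% in cKO cells, that of Ccl9 18.3% and 44.1%, and that of Ccl2 11.1% and 43.2%. Cluster 2 held 75.7% of control and 30.2% of cKO Ccl12 UMIs, and cluster 1 held 10.7% and 42.4%. Of the Ccl8 UMIs, 65.5% of control and 25% of cKO were in cluster 2, and 23.5% and 57.1% in cluster 5. Without cKO replicate 5, the cKO share of Ccl8 was 13.4% in cluster 2 and 65.6% in cluster 5. Monocyte-like cells were 2.35% to 11.7% of the cells of a control mouse and 19.3% to 31.0% of those of a cKO mouse, without overlap. Cluster 2 was 12.6% to 35.0% and 5.17% to 16.9% of the cells, cluster 1 9.90% to 30.6% and 14.7% to 25.8%, and cluster 5 5.10% to 11.8% and 7.02% to 11.1%, all with overlap. In cells summed per mouse, fewer cells of a type and less RNA per cell cannot be told apart.

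**Figure D2:**
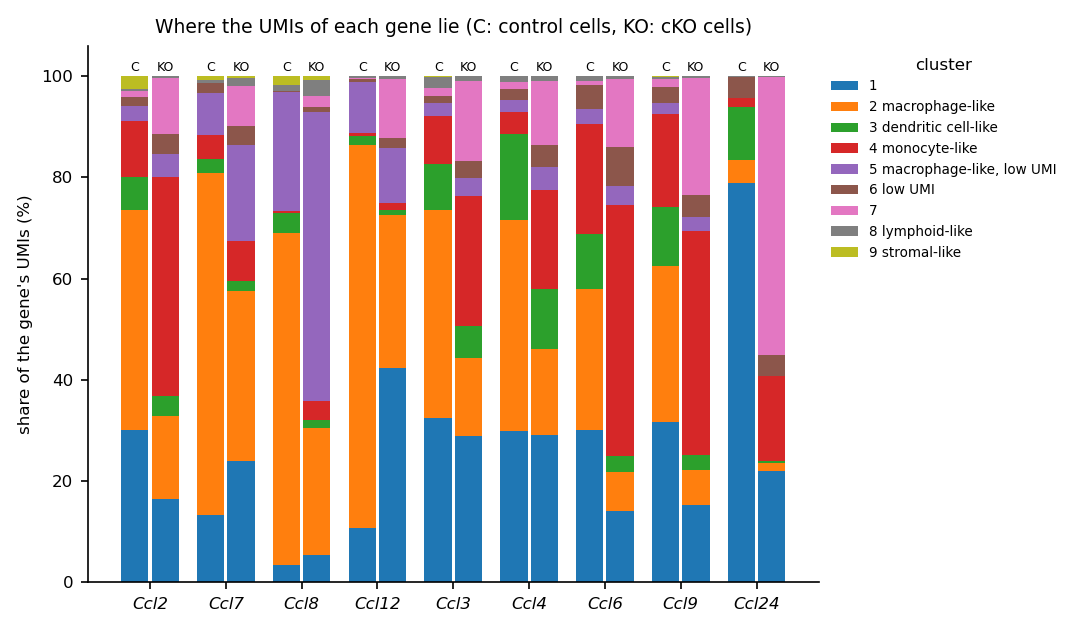
Share (%) of each gene's UMIs that lay in each of the 9 clusters (colours), with control cells on the left and cKO cells on the right of each pair of bars. For Ccl6, Ccl9 and Ccl2 the monocyte-like share (red) was larger in cKO cells, and for Ccl12 and Ccl8 the share of cluster 2 (orange) was smaller.

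The first comparison asked whether the level of any member in the sorted cells as a whole differed between cKO and control mice. Of the 9 members, 0 passed a false discovery rate of 0.05 (edgeR, quasi-likelihood, p-values adjusted after Benjamini and Hochberg over all genes), against 4.48% of the 11387 genes tested. An unadjusted p under 0.05 was reached by 2 of 9 members and by 20.6% of all genes, and DESeq2 and edgeR's likelihood ratio test also called 0. The median log2 fold change was 0.40 for the members and -0.03 for all genes tested. No member had all cKO mice on 1 side of all control mice, which 12.3% of all genes did.

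Ccl6 came closest. It stood at 503, 351, 194 and 441 CPM in control and at 420, 565, 667 and 675 CPM in cKO mice. Of the cKO mice, 3 lay above all control mice, and cKO replicate 5 lay among them. The log2 fold change was 0.74 (SE 0.25, adjusted p = 0.115 by edgeR), and without control replicate 3 and cKO replicate 5 it was 0.69 and passed (adjusted p = 0.0492), in a fit chosen after the data were seen.

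Ccl9 moved alike, with 570, 373, 251 and 500 CPM in control and 434, 576, 810 and 607 CPM in cKO mice. Here too 3 cKO mice lay above all control mice. The log2 fold change was 0.62 (SE 0.25, adjusted p = 0.180 by edgeR). A fit with cluster as a term used limma-voom on sums of a mouse and cluster with at least 20 cells. It held no sum of cKO replicate 5, and control replicate 3 in clusters 1 and 3 only. In this fit both genes turned to -0.16 (Ccl6) and -0.30 (Ccl9), with adjusted p = 0.678 and 0.274 by limma-voom.

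Ccl3 had the lower values in cKO mice. Its levels were 501, 365, 703 and 551 CPM in control and 249, 495, 410 and 299 CPM in cKO mice, so that 2 cKO mice lay below all control mice. The log2 fold change of -0.44 (SE 0.25) did not pass (adjusted p = 0.348 by edgeR). It passed with only the clusters that were not dendritic cell-like, lymphoid-like or stromal-like, at -0.99 (adjusted p = 0.0306 by edgeR). Ccl3 also passed with cluster as a term, in the fit without cKO replicate 5, at -0.52 (adjusted p = 0.0330 by limma-voom).

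Ccl7 and Ccl8 were decided by 1 small library. In cKO replicate 5, Ccl7 was at 555 CPM and Ccl8 at 832 CPM, where the other cKO mice had 148 to 207 and 139 to 210 CPM. Control mice were at 296, 272, 154 and 113 CPM of Ccl7 and at 319, 383, 124 and 108 CPM of Ccl8. Log2 fold changes were 0.40 (SE 0.41) and 0.56 (SE 0.55), with adjusted p = 0.626 and 0.610 by edgeR, and without cKO replicate 5 they were -0.17 and -0.33. In that mouse Ccl8 had 231 UMIs in 14 cells of cluster 2 and 142 UMIs in 8 cells of cluster 5.

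The other members overlapped widely between the groups. Ccl2 was at 285, 371, 462 and 242 CPM in control and at 484, 288, 419 and 411 CPM in cKO mice (log2 fold change 0.33, adjusted p = 0.434 by edgeR). For Ccl12 the control mice had 247, 276, 212 and 70.0 CPM and the cKO mice 400.0, 208, 308 and 259 CPM (0.63, adjusted p = 0.331). Ccl4 was at 1009 ± 153 CPM in control and 921 ± 128 CPM in cKO mice (SD, n = 4 each; -0.04, adjusted p = 0.933), and Ccl24 had a log2 fold change of -1.18 with an SE of 1.11 (adjusted p = 0.598).

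**Figure D3:**
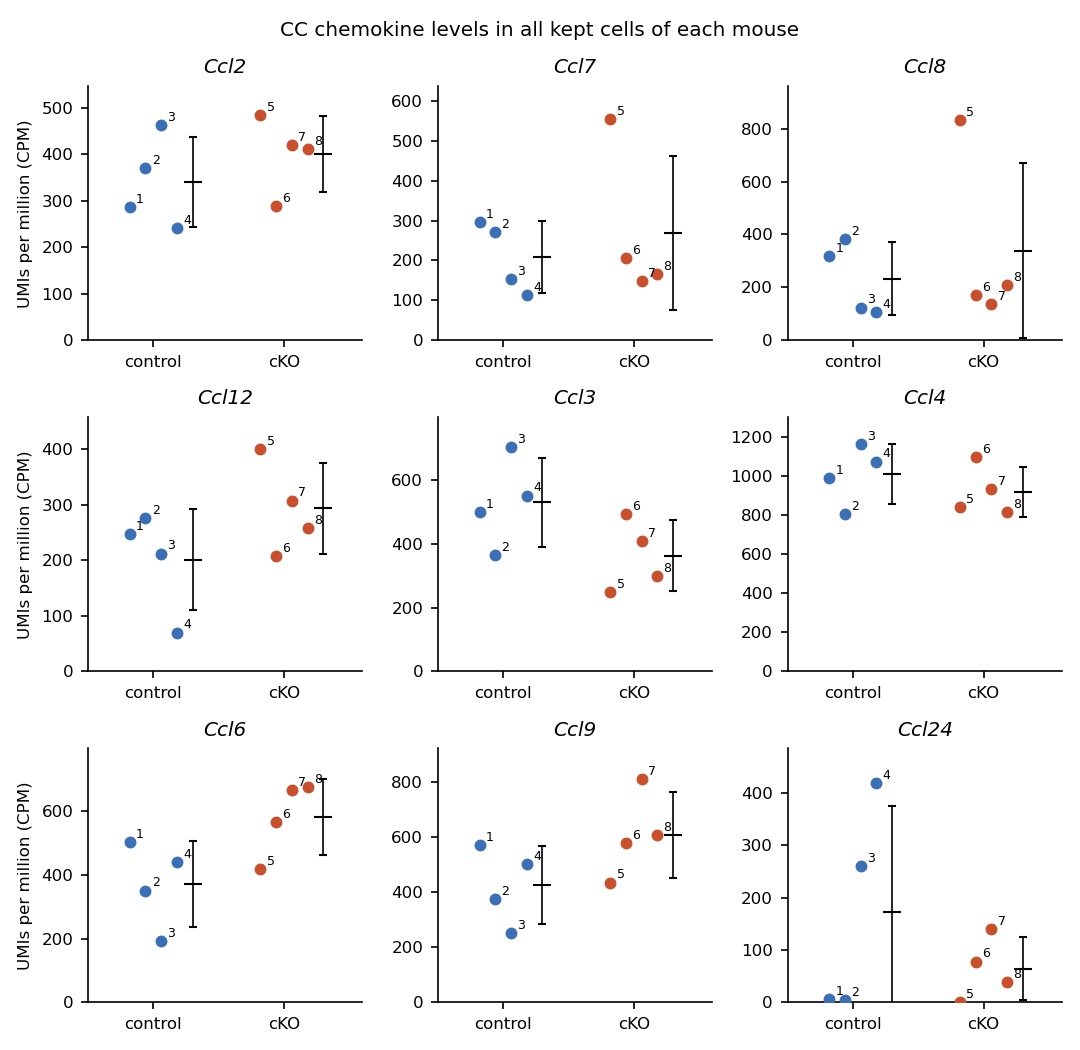
CPM of each member in all kept cells of each mouse (points, numbered by replicate, blue control and orange cKO), with the mean and SD of 4 mice at the side (bars cut at 0). Groups overlapped for all 9 members, and cKO replicate 5 was far above the other cKO mice for Ccl7 and Ccl8.

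A ratio for each member from the make-up of the sums alone was had by giving every cluster its pooled control level and weighting it by its share of each mouse's UMIs, which holds both the number of cells and the RNA per cell. This gave a cKO over control ratio of the means of 1.68 for Ccl6 and 1.66 for Ccl9, where the measured ratios were 1.56 and 1.43. For Ccl3 it gave 1.37 where 0.685 was measured, and for Ccl12 0.776 where 1.46 was measured. For Ccl7 and Ccl8 it gave 0.913 and 0.804, where 1.29 and 1.45 were measured, and for Ccl2 and Ccl4 1.35 and 1.14, where 1.18 and 0.912 were measured. Ccl24 stood at 0.372 where 1.15 was given. These ratios carry no test. The control level of cluster 7 rested on 18 cells, 12 of them from control replicate 4. This cluster held 5.93% to 25.7% of the UMIs of a cKO mouse.

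The second comparison looked within clusters, with 48 sums of a mouse and cluster. It could be made in clusters 1, 2, 3, 4, 5, 6 and 8. No sum of cKO replicate 5 reached 20 cells, and control replicate 3 entered in clusters 1 and 3 only. In cluster 1, 1 of 9 members passed, Ccl12, against 0.946% of the 11094 genes tested. In clusters 2, 3, 4, 5, 6 and 8, 0 members passed by edgeR, where 0.388%, 0.415%, 0.442%, 0.0541%, 0.117% and 0.0541% of genes did. An unadjusted p under 0.05 was reached by 4 members in cluster 1 and by 1, 1, 1, 0, 0 and 2 in the others, in the same order. Of all genes, 8.1% reached it in cluster 1 and 8.46%, 6.81%, 7.49%, 4.65%, 5.5% and 6.23% in the others. DESeq2 called 1 in cluster 8 and 0 in the others.

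Ccl12 rose in cluster 1 of cKO mice. The control mice had 85.9, 561, 25.3 and 45.8 CPM and cKO replicates 6, 7 and 8 had 324, 986 and 444 CPM. Control replicate 2 lay inside the range of the cKO mice, and the other control mice lay below it. The log2 fold change was 1.86 (SE 0.48, adjusted p = 0.0310 by edgeR). DESeq2 did not call it (1.70, adjusted p = 0.312), and the call was lost without control replicate 1 (1.59), 3 (1.55) or 4 (1.48) and without cKO replicate 7 (1.23) or 8, while without control replicate 2 the value was 3.30 and passed. In cluster 2, its level was 645, 725 and 253 CPM in control and 651, 715 and 661 CPM in cKO mice.

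Of the other members in cluster 1, 7 had a negative log2 fold change and Ccl7 a positive one (0.32), and none passed. Ccl2 was at 541, 979, 929 and 292 CPM in control and 232, 262 and 342 CPM in cKO mice (adjusted p = 0.300 by edgeR). Ccl3 was at 872, 690, 1062 and 934 CPM in control and 605, 546 and 470 CPM in cKO mice (-0.68, adjusted p = 0.689 by edgeR). Ccl9 had 784 ± 374 CPM (SD, n = 4) and 488 ± 53.2 CPM (n = 3), with a log2 fold change of -0.67 (adjusted p = 0.556). Ccl24 was at 215, 63.6 and 4.07 CPM in the cKO mice, all below control replicates 3 and 4.

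Ccl8 had lower values in the macrophage-like cluster 2 and not in cluster 5. In cluster 2, control replicates 1, 2 and 4 had 729, 918 and 244 CPM and cKO replicates 6, 7 and 8 had 304, 245 and 167 CPM. Control replicate 4 lay within the cKO range. The log2 fold change of -1.57 (SE 0.42) did not pass (adjusted p = 0.0753 by edgeR). It passed by limma-voom (-1.64, adjusted p = 0.0195) and without control replicate 4 (-1.94, adjusted p = 0.000389 by edgeR), and it turned to 0.34 when sums from 10 cells were admitted, which brings in cKO replicate 5 with 2658 CPM. In cluster 5 the cKO mice had 4883, 4663 and 4149 CPM, within or above the control range, and a log2 fold change of 0.27 (SE 0.39).

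Ccl3 in monocyte-like cells was at 642, 709 and 675 CPM in control and 603, 323 and 257 CPM in cKO mice (-0.68, SE 0.40, adjusted p = 0.745 by edgeR). In lymphoid-like cells its log2 fold change of -2.41 (SE 0.60, adjusted p = 0.0971) rested on control replicate 4, named above, and was 0.19 without it. Ccl6 and Ccl9, the genes with the highest level in monocyte-like cells, had log2 fold changes there of -0.10 and -0.12. Ccl4 in dendritic cell-like cells was at 393, 292, 416 and 602 CPM in control and 692, 637 and 1085 CPM in cKO mice (0.85, SE 0.36, adjusted p = 0.676 by edgeR).

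**Figure D4:**
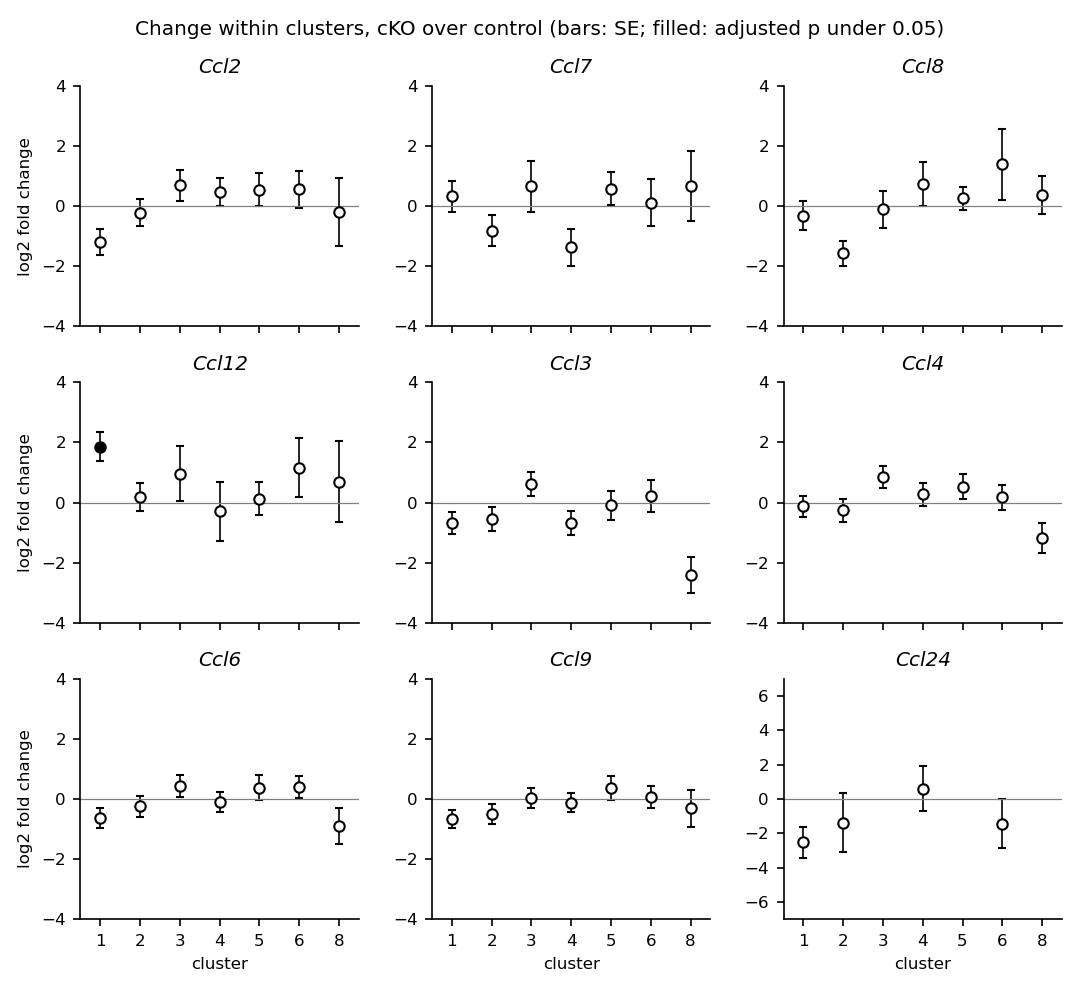
Log2 fold change of cKO over control (points, bars are SE) for each member in the 7 clusters compared, with the adjusted p under 0.05 shown as a filled point and Ccl24 left out where a group had 3 UMIs or fewer. Only Ccl12 in cluster 1 (1.86) is filled, and the panel of Ccl24 has a wider axis.

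**Figure D5:**
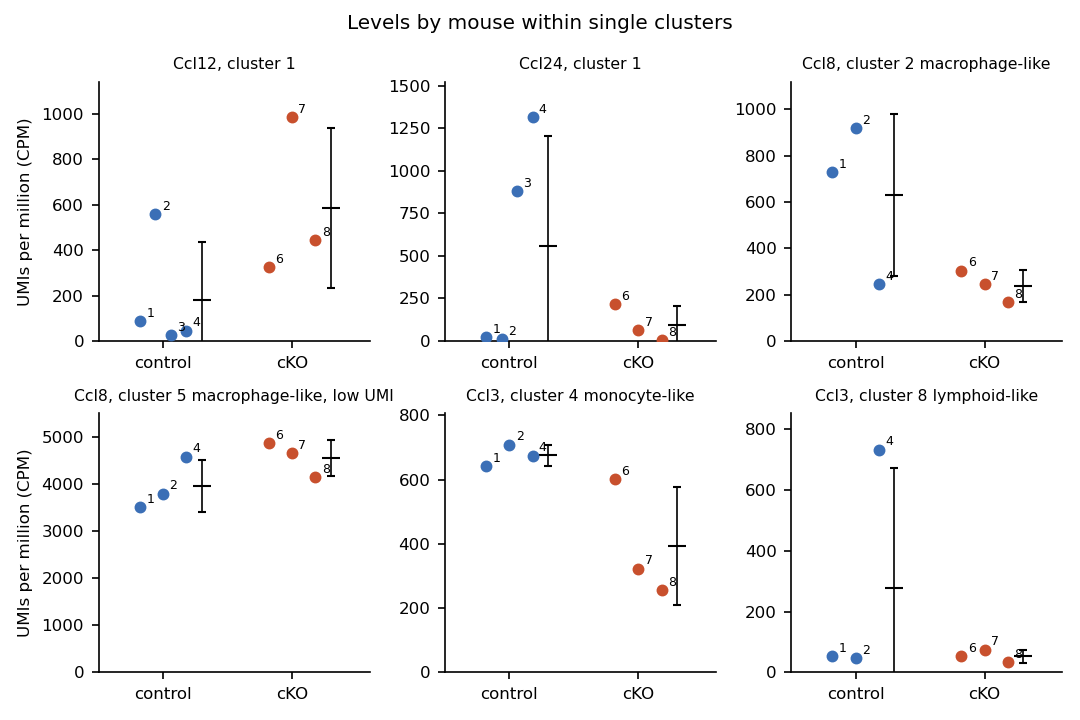
CPM by mouse (points, numbered by replicate; mean and SD at the side, bars cut at 0) in single clusters with at least 20 cells of the mouse. Control replicate 2 of Ccl12 in cluster 1 (561 CPM) lies among the cKO mice, and control replicate 4 alone lifts Ccl3 in lymphoid-like cells (733 CPM).

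Whether the cKO effect on a member differed between clusters was tested directly. None of the 9 members passed (0.0721% of genes did), the smallest unadjusted p being 0.00657 for Ccl3 and 0.0194 for Ccl8, and the adjusted p was 0.943 or more for all by edgeR. By limma-voom the smallest adjusted p was 0.141, for Ccl12. Differences between clusters in the signs named above are therefore not shown beyond the spread between mice.

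The receptors and the other CC chemokines give the context of the members. Of 15 listed receptors 13 were in the table and 7 had enough UMIs to be tested, and of 14 other CC chemokines 10 and 6. Of these, 1 receptor was called higher in cKO mice (2.99% of genes were), 0 lower (1.48% of genes were), and 0 other CC chemokines in either direction by edgeR. The receptor was Ccrl2, a chemerin-binding receptor that does not signal by itself, at 268, 250, 321 and 483 CPM in control and 619, 534, 960 and 484 CPM in cKO mice, groups that only just did not overlap (1.08, SE 0.26, adjusted p = 0.0386 by edgeR). Leaving out any mouse but control replicate 4 ended this call, with values from 0.80 to 1.21. Its level was highest in cluster 7, at 1448, 1951 and 1520 CPM in cKO replicates 6, 7 and 8.

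Ccr2, which marked the sort and reads Ccl2, Ccl7 and Ccl12, was at 386 ± 123 CPM in control and 391 ± 47.4 CPM in cKO mice (SD, n = 4 each), with a log2 fold change of 0.11 (adjusted p = 0.809 by edgeR). In monocyte-like cells it was at 1028, 1142 and 983 CPM in control and 521, 678 and 592 CPM in cKO mice. This did not pass (-0.70, adjusted p = 0.484 by edgeR), nor did clusters 1 (-0.85, adjusted p = 0.156) and 6 (-1.01, adjusted p = 0.507). The log2 fold change of Ccr2 was -0.45, -0.22 and -0.52 in clusters 2, 3 and 8, and 0.92 in cluster 5. Ccr1, the receptor of Ccl3, Ccl6 and Ccl9, did not pass either (0.47, adjusted p = 0.449 by edgeR). Ccr3 had 20 UMIs and Ccr8 15 UMIs in all kept cells, so the receptors of Ccl24 and Ccl8 were close to the limit of detection in this sort.

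Of the other CC chemokines, Ccl5, a chemokine made by T cells and macrophages, had the largest log2 fold change upward, 1.27 (SE 0.62, adjusted p = 0.276 by edgeR), from 145 ± 71.3 to 324 ± 244 CPM (SD, n = 4 each). In cluster 1 it was called, at 189, 30.2, 209 and 199 CPM in control and 589, 1257 and 1301 CPM in cKO mice (2.73, SE 0.68, adjusted p = 0.0202 by edgeR), but not by DESeq2 (adjusted p = 0.244). The call was also lost without control replicate 1 or 2 or cKO replicate 8 (adjusted p = 0.0530, 0.0621 and 0.180 by edgeR) and with sums from 10 cells (0.0816). It was lost with clustering without the genes that differ between conditions (0.0652) and with graph clustering (0.842), and clustering on all genes took the value to 0.34. The clusters matched to cluster 1 there held only part of its cells. Of the cells in either cluster, 0.340, 0.434 and 0.389 were in both, in the same order. Ccl22 and Ccl17, ligands of Ccr4, had lower values (-2.21 and -1.27, adjusted p = 0.165 and 0.344 by edgeR), with overlap between the groups. Ccl22 was at 9.04, 16.2, 0 and 72.0 CPM in control and 2.01, 1.21, 10.5 and 4.37 CPM in cKO mice. Ccl17 was at 58.5, 9.48, 13.6 and 120 CPM in control and 0, 15.7, 37.0 and 17.5 CPM in cKO mice. Control replicate 4 was the highest for both. Dendritic cell-like shares were 20.2% to 27.3% of the cells in control and 4.96% to 9.64% in cKO mice. The part of these shares in the values was not tested. Ccl11 (-0.82), Ccl25 (0.07), Ccl27a (-0.64), Ccr7 (-1.06), Ccr9 (-0.80) and Ccr10 (-0.69) did not pass. The smallest adjusted p among these 6 genes was 0.211.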

How the data were processed

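The authors sequenced 8 single-cell libraries (10x 3' chemistry, 1 well per mouse, 1 flow cell) and used Cell Ranger with STAR 2.5.3a on mm10. The deposited values are whole-number UMI counts per gene and cell, without normalization. Cells were joined to mice through the well in each column name, and none was left over. Kept were cells with log10 UMIs of at least 2.8, log10 genes of at least 2.6, at most 5% mitochondrial UMIs and 0 hemoglobin UMIs. Scrublet (scanpy 1.11.5) doublets stayed in. Clusters came from scran 1.30.0 principal components and Ward clustering. UMIs were summed within each mouse, and within each mouse and cluster of at least 20 cells, and tested with edgeR 4.0.16 (TMM, glmQLFit, glmQLFTest, Benjamini-Hochberg over all genes with over 1 CPM in at least 3 sums and a UMI in at least 20 cells), under R 4.3.3. Alternatives used DESeq2 1.42.0 and limma 3.58.1. In simulated counts with 4-fold changes in 200 genes and a biological coefficient of variation of 0.3, the fit recovered 82.5% of them in all cells. In clusters 1, 2, 3, 4, 5, 6 and 8 it recovered 42.5%, 35.5%, 47%, 32.5%, 8.5%, 11.5% and 19.5%. The changed genes were drawn from all genes tested, each with 1 mean over all sums. These shares do not measure how often a change in a member would be found. A member that did not pass within a cluster may still have changed. Where a group had 3 UMIs or fewer, no fold is given.

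The members and gene lists were chosen with earlier results of these data known. Named were the 9 members, listed genes above the filter and the 3 genes most like each member (mean of at least 20 CPM). Cells in 1 mouse are not replicates, and n counts mice, each a separate animal. The sorted cells were labelled monocytes and macrophages, but clusters led by other markers were kept.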

Additional observations from a re-analysis of the deposited data

Results flagged for a closer look

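In 36 groups of 4 mice (each member in all cells, and in clusters 1 and 3 of control mice), the value farthest from the rest was compared with Dixon's 95% critical value. Chance gives about 1 in 20 such flags, and 6 groups passed. In all cells of the cKO group, replicate 5 was apart for Ccl7, at 555 CPM, and for Ccl8, at 832 CPM. In cluster 1 of the control group, replicate 2 was apart for Ccl12, at 561 CPM, and for Ccl8, at 185 CPM. In the dendritic cell-like cells of the control group, replicate 3 was apart for Ccl2, at 208 CPM, and replicate 4 for Ccl24, at 124 CPM.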

How the results depend on the processing

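No paired analysis was made because the labels join no control mouse to a cKO mouse. The paper describes the mice as female littermates, but which mice shared a litter is not given. In all cells, 1 member was called in place of 0 with cluster as a term (Ccl3), with only the clusters not set aside (Ccl3), and without control replicate 3 and cKO replicate 5 together (Ccl6), and 0 without any single mouse. The fit with cluster as a term used limma-voom on the sums of a mouse and cluster, which left out cKO replicate 5. In it the log2 fold changes turned to -0.13 (Ccl2), -0.16 (Ccl6), -0.30 (Ccl8) and -0.30 (Ccl9). With only the clusters not set aside they turned to -0.20 (Ccl2), -0.23 (Ccl7), -0.048 (Ccl8) and -0.023 (Ccl12). Without control replicate 3 and cKO replicate 5 together, Ccl4 turned to 0.11, Ccl7 to -0.27 and Ccl8 to -0.52. Without single mice, Ccl4 ranged from -0.13 to 0.058, Ccl7 from -0.17 to 0.64, Ccl8 from -0.33 to 0.91 and Ccl24 from -1.87 to 0.060. The cause of these turns was not tested.

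Within clusters, members called changed as follows. Each cluster fitted alone called 3 in cluster 1, 2 in cluster 2, 2 in cluster 4 and 1 in cluster 8. No low-count filter called 3, 1, 2, 1 and 2 in clusters 1, 2, 3, 4 and 8. DESeq2 called 0 in cluster 1 and 1 in cluster 8 (Ccl3). Limma-voom with mice as random effects, and clustering without the genes that differ between conditions, called 1 in cluster 2 (Ccl8). Without single mice the count ranged from 0 to 1 in clusters 1, 2 and 8. Ccl8 in cluster 2 reversed to 0.34 with sums from 10 cells, and Ccl3 in cluster 8 ranged from -2.88 to 0.19 without single mice. Among other CC genes the count ranged from 0 to 1 without single mice.

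The number of all genes called in all cells ran from 153 (without control replicate 2) to 1038 (likelihood ratio test), against 510. Scaling by total UMIs moved the median of all genes to -0.13 and the split of higher and lower calls from 341 and 169 to 271 and 262, and called 0 members. The leading cluster of 7 to 9 members stayed under every alternative tried. Thinning to 1000 UMIs moved that of Ccl3 to cluster 2 and that of Ccl6 to cluster 6. Limits: 2 small libraries, 3 cKO mice within clusters, few cells per mouse in clusters 5, 6 and 8, and control replicate 4 for Ccl24, Ccl3 and Ccl22.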
